A study of Homo sapiens with 288 samples.

Results

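CDH5, the gene for VE-cadherin, varied over a wide range among single endothelial cells (EC) derived from the H1 human embryonic stem cell line, and the 38 cells described here were compared by how much CDH5 each one held. The cells were chosen by 3 measured values in the experiment named EQ. A cell was kept where its log10 total count was at least 5.4 and at most 31% of its counts fell in its 50 most abundant genes, and the kept cells were ranked by CDH5 in CPM, a count scaled to the same total of 1000000 in every library. Of the 45 EC cells of EQ, 38 were kept, and the upper 19 are called CDH5-high and the lower 19 CDH5-low. The whole series holds 288 libraries.

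The study asked how equalizing the amount of cDNA from each cell affects single-cell RNA-seq, and it made 3 sets of equalized libraries from the same amplified cDNA of EC and trophoblast-like (TB) cells. EQ libraries received one fixed cDNA input and were pooled at equal volume, EQ-Vary libraries were pooled at uneven volumes, and EQ-75% was a repeat of the EQ preparation at lower sequencing depth. EC cells were made from stem cells in E8 medium with BMP4 and Activin A, followed by VEGF and WNT, and each was captured on the Fluidigm C1 system. Both CDH5 groups carry the same labels for line, differentiation and library preparation, and the labels name no capture run.

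The labels name no separate cultures. Each CDH5 group was treated as 1 sample, and a cell was not a replicate of anything but its own group, so no p-value is given below and every spread is a spread between cells. EQ-75% repeats the library preparation of the same cells, and EQ-Vary pooled them at other volumes. Neither repeats the cells, the capture or the cDNA amplification. The methods do not say whether the libraries of EQ-Vary were made anew, so its closeness to EQ may describe pooling and sequencing only.

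VE-cadherin is the adhesion molecule of adherens junctions between endothelial cells. Its cytoplasmic tail binds beta-catenin, plakoglobin and p120-catenin, alpha-catenin ties the complex to actin, and the phosphatase VE-PTP (gene PTPRB) acts on it. The gene is switched on as mesodermal cells become endothelial, together with the VEGF receptors, the angiopoietin receptor TEK and transcription factors of the ETS, SOX and GATA families.

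CDH5 (ENSG00000179776, GRCh38 chr16:66366690-66404784, plus strand) ranged from 342 to 2282 CPM in the 19 CDH5-high cells, with a median of 492. In the 19 CDH5-low cells it ranged from 34.4 to 321 CPM, with a median of 151. These levels did the choosing and do not overlap for that reason. The last cell inside the CDH5-high group was EC 38 at 342 CPM and the first outside it was EC 13 at 321 CPM, so the dividing line ran through a continuous range of levels and not through a gap. In the 48 TB cells of EQ that met the same limits, CDH5 ranged from 0 to 8.21 CPM, with a median of 0.446. Each of the 38 kept EC cells in EQ, down to EC 15 at 34.4 CPM, was above those TB cells. In EQ-75% the 50 TB cells had a median of 0 CPM and a highest value of 44.02 CPM, and EC 15, at 21.9 CPM there, lay inside that range.

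EQ-75% and EQ-Vary, from the same cDNA, gave CDH5 levels close to those of EQ. In EQ-75%, CDH5 ranged from 306 to 2294 CPM in the 18 CDH5-high cells that met the limits and from 21.9 to 307 CPM in the 19 CDH5-low cells, with medians of 437 and 144. The median cell differed between EQ and EQ-75% by 0.13 in log2(CPM + 1) and the most different one, EC 25, by 0.69. When the 37 cells were ranked again on EQ-75%, the upper 18 held 17 CDH5-high cells and 1 CDH5-low cell, EC 2, while all 18 of the lower cells were CDH5-low and EC 25 lay in the middle. In EQ-Vary, 0 of 38 cells moved, and the largest difference was 0.36, in EC 21. The plot of CDH5 by cell shows the levels in the 3 libraries.

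**Figure D1:**
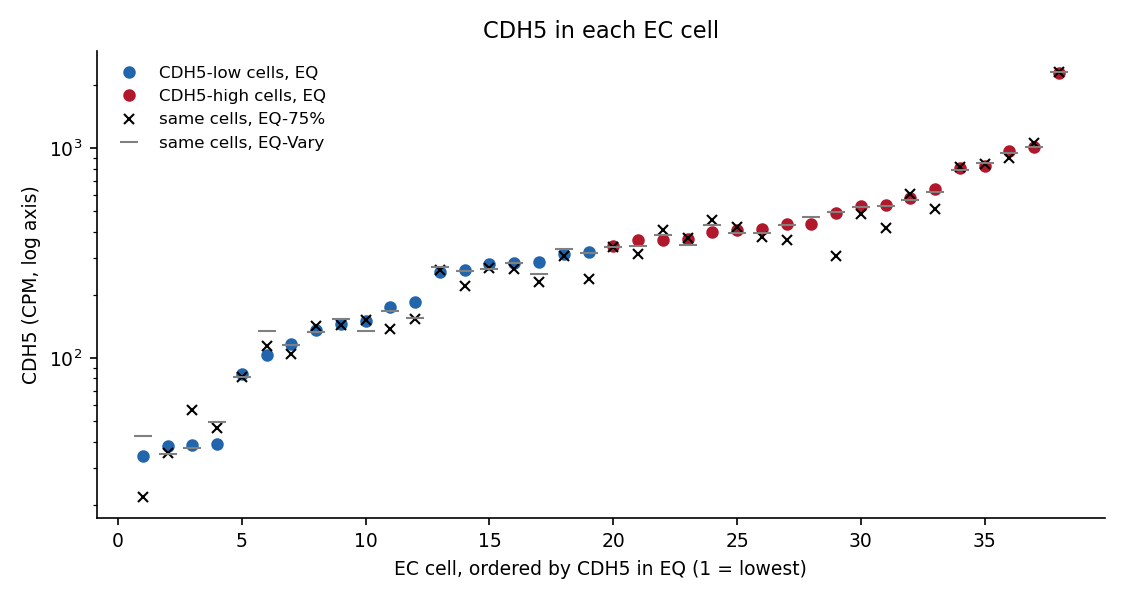
CDH5 in CPM (log axis) in each of the 38 EC cells, ordered from lowest to highest in EQ, with the EQ values as filled points coloured by group, EQ-75% as crosses and EQ-Vary as dashes. The CDH5-low cells run from 34.4 to 321 CPM and the CDH5-high cells from 342 to 2282 CPM, and 27 of the 37 cells with an EQ-75% value have another rank there, the largest change being 9 places, in EC 25.

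Sequencing depth was close in both groups. The total count had a median of 1997994 in CDH5-high cells (range 600574 to 3966798) and 2044666 in CDH5-low cells (range 471578 to 3286156). The number of genes detected was 8691 ± 498 (SD, n = 19 cells) in CDH5-high and 8843 ± 545 (SD, n = 19 cells) in CDH5-low cells. The 50 most abundant genes took 17.96% ± 2.10 and 17.6% ± 2.40 of the counts.

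One cell stood apart from the other 37. EC 15, the cell with the lowest CDH5, held 576 CPM over the whole endothelial identity list, against 3040 to 12562 CPM in the others. NANOG, a core transcription factor of pluripotent cells, was at 1502 CPM in EC 15 and at most 202 CPM elsewhere, and POU5F1 was at 384 CPM against at most 122 CPM. The summed pluripotency list reached 4181 CPM there and at most 2263 CPM in the others, and KDR was at 51.3 CPM against 66.6 CPM or more. Not every member of these lists set EC 15 apart. The pluripotency gene GDF3 was at 0.50 CPM in EC 15 and reached 700 CPM elsewhere. PECAM1, at 99.6 CPM, lay inside the range of the others, whose lowest value was 28.7 CPM. In EC 15, NANOG was at 1507 CPM both in EQ-75% and in EQ-Vary, which come from the same cDNA. Some of the values that rest on EC 15 are given below with and without it, and others only with it.

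**Figure D2:**
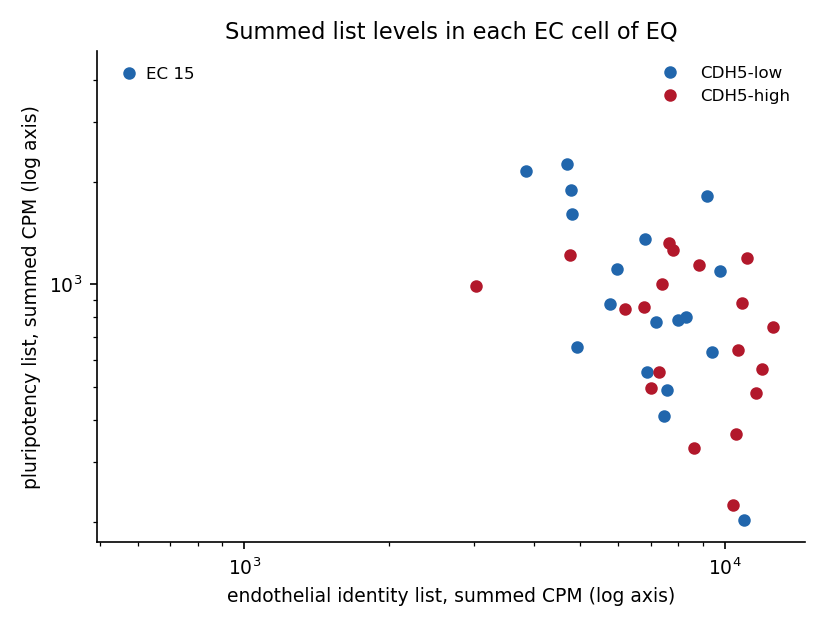
Summed CPM of the pluripotency list against summed CPM of the endothelial identity list in each of the 38 EC cells of EQ (both axes log), coloured by CDH5 group. EC 15 lies alone at 576 CPM of endothelial and 4181 CPM of pluripotency genes, while the other 37 cells of both groups share one cloud between 3040 and 12562 CPM on the endothelial axis.

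Across all other genes, the comparison asked which genes went with CDH5 from cell to cell. The measure was the difference between the groups' means of log2(CPM + 1), CDH5-high minus CDH5-low, and a gene is called higher or lower where this was 1 or more in size. On this scale the change of a gene with few counts is understated. Of 9619 genes with a mean of at least 5 CPM, 475 were higher (4.94%) and 918 were lower (9.54%) in CDH5-high cells. Scaling by median-of-ratios size factors in place of CPM moved this split to 670 higher and 725 lower, so that 48.03% of the called genes were higher in place of 34.1%. The median difference over all genes was -0.16 with CPM and -0.02 with size factors, and the differences below are to be read against that shift.

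Few of these differences were large beside the spread between cells. Only 3 of the 475 higher genes and 9 of the 918 lower genes differed by more than the SD in either group. In EQ-75%, 557 genes were higher (5.79%) and 958 lower (9.96%). Of the genes called in EQ, 387 of 475 (81.5%) and 743 of 918 (80.9%) were also called in the same direction in EQ-75%, which describes how repeatable the libraries were and not whether other cells would give the same genes. Without EC 15, 469 genes were higher (4.88%) and 918 lower (9.54%), with a median difference of -0.15.

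Endothelial identity genes leaned towards the CDH5-high cells, but unevenly. Of the 24 genes on this list, 21 passed the filter, and 6 of them (28.6%, against 4.94% of all genes tested) were higher and 1 was lower, with a median difference of 0.39. In EQ-75% the counts were 6 and 1, with a median of 0.39. The 6 higher genes were CLEC14A, TEK, PLVAP, ERG, S1PR1 and FLT1. The lower one was ENG, which passed the filter through the CDH5-low cells. Without EC 15 the counts were 6 and 1 and the median was 0.18, and as log2 ratios of mean CPM 4 genes were higher and 2 lower, with a median of 0.15. CLDN5 and ROBO4 were under the filter, and ICAM2 was not analysed here.

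TEK (chr9:27109141-27230174), the receptor for angiopoietins, ranged from 31.6 to 1488 CPM in CDH5-high cells, with a median of 286, and from 2.12 to 1532 CPM in CDH5-low cells, with a median of 95.8. The groups overlapped over most of their range, and the single highest cell was CDH5-low, but 16 of the 19 CDH5-high cells lay above the CDH5-low median. The difference was 2.07 on the log2(CPM + 1) scale in EQ, with SDs between cells of 1.48 and 2.43, 2.25 in EQ-75%, and 1.87 without EC 15. Summed over cells, TEK took 15473 counts in CDH5-high cells (95% exact Poisson interval 15230 to 15719) and 9060 in CDH5-low cells (8874 to 9249), an interval that covers counting error only. In TB cells the median was 0 CPM.

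PLVAP (chr19:17351450-17377342), which forms the diaphragms of endothelial fenestrae and caveolae, ranged from 60.7 to 638 CPM in CDH5-high cells, with a median of 280. In CDH5-low cells it ranged from 1.99 to 686 CPM, with a median of 120. The difference was 1.56, with SDs of 0.91 and 1.63, and 17 of 19 CDH5-high cells lay above the CDH5-low median. EC 15 was the lowest cell of all for this gene, at 1.99 CPM, and without it the difference was 1.29.

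CLEC14A (chr14:38254000-38256093), a C-type lectin of the endothelial surface, showed the largest difference of the list. It ranged from 0.76 to 2302 CPM in CDH5-high cells, with a median of 81.0, and from 0 to 346 CPM in CDH5-low cells, with a median of 7.03. Every CDH5-high cell held at least 1 count, against 16 of 19 CDH5-low cells. The difference was 2.32, with SDs of 2.93 and 2.92, and EC 23 was the highest cell both for CLEC14A and for CDH5.

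The receptors S1PR1 and FLT1 were higher by smaller amounts, and as log2 ratios of mean CPM they differed by 0.57 and 0.60, under the limit of 1. S1PR1, a receptor for sphingosine 1-phosphate, had medians of 53.3 and 9.70 CPM and a difference of 1.38, with SDs of 2.63 and 3.25. FLT1, VEGF receptor 1, had medians of 728 and 291 CPM and a difference of 1.28, with SDs of 1.19 and 2.12, and 17 of 19 CDH5-high cells lay above the CDH5-low median. Both genes overlapped widely between the groups.

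The well known endothelial markers KDR, PECAM1 and CD34 were not called. KDR, VEGF receptor 2, had medians of 1859 CPM in CDH5-high and 1753 CPM in CDH5-low cells and a difference of 0.39, which was 0.15 without EC 15. PECAM1, a junctional adhesion molecule, had medians of 1273 and 988 CPM and a difference of 0.64. CD34 also differed by 0.64, with medians of 1062 and 596 CPM. None of the 3 reached 1, a fixed limit that does not take the spread between cells into account. TIE1, the partner receptor of TEK, differed by -0.71, in the opposite direction to TEK, with medians of 14.7 and 45.8 CPM. ENG, a co-receptor of the TGF-beta family, was at or near 0 CPM in most cells: its median was 0 CPM with a highest value of 69.9 in CDH5-high cells and 2.28 CPM with a highest value of 209 in CDH5-low cells, and it differed by -1.50.

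**Figure D3:**
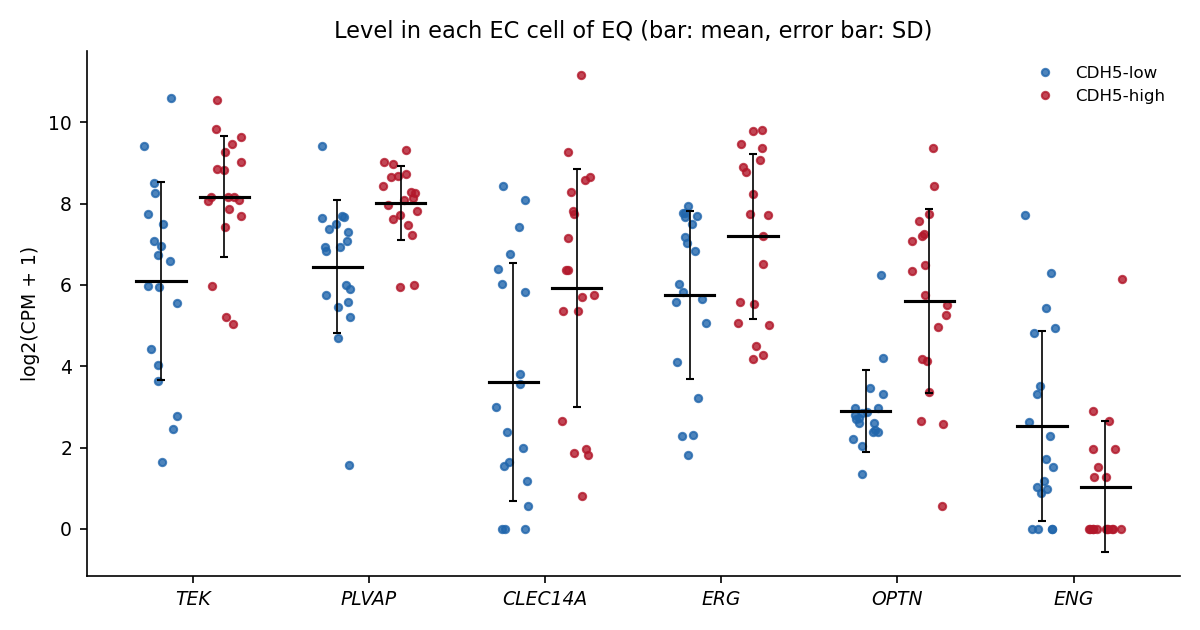
Level of TEK, PLVAP, CLEC14A, ERG, OPTN and ENG as log2(CPM + 1) in each EC cell of EQ, with CDH5-low cells in blue and CDH5-high cells in red, the group mean as a bar and the SD between cells as an error bar (n = 19 cells per group). The means of TEK differ by 2.07 and those of OPTN by 2.70, and the points of the groups overlap for every gene shown.

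The windows of 250 bases before the transcription start of 4 genes called higher are shown because they hold no annotated exon of the gene, so that the sequence printed is upstream or intronic sequence only. CLEC14A and PLVAP belong to the endothelial identity list, APLN is the apelin ligand, and MEIS1 is a homeobox transcription factor. All are from RefSeq (GRCh38.p14), and where the table gives several starts the first was used. Capitals mark the letters GGAA, the core of the sites bound by ETS factors such as ERG, or TTCC, the same letters on the other strand. CLEC14A is at chr14:38256094-38256343 (minus strand), PLVAP at chr19:17377343-17377592 (minus), APLN at chrX:129654957-129655206 (minus) and MEIS1 at chr2:66434875-66435124 (plus).
CLEC14A: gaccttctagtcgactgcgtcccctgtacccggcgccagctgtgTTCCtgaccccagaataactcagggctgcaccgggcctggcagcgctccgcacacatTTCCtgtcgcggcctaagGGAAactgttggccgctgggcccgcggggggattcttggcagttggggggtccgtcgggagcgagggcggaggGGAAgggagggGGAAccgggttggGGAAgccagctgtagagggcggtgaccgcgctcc
PLVAP: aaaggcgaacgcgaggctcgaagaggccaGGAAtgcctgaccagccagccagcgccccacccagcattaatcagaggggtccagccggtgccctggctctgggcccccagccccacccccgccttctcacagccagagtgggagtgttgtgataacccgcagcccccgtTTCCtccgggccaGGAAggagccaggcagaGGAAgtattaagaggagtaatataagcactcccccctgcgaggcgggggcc
APLN: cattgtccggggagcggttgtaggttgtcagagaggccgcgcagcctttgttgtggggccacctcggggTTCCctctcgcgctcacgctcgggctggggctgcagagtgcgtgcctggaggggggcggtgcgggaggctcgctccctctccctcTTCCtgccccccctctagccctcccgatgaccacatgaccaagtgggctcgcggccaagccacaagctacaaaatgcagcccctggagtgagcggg
MEIS1: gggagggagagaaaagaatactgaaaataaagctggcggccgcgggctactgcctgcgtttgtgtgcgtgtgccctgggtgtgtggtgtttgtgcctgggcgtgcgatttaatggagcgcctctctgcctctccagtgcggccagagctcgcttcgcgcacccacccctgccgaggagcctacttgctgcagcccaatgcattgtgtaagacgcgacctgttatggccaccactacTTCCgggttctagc
The letters GGAA on either strand occurred 6 times before CLEC14A, 4 times before PLVAP, 2 times before APLN and 1 time before MEIS1. They occurred in 92.7% of the 12985 windows of the same length that matched one of the 17492 listed genes, with a median of 3, so their presence sets none of these genes apart. The longer form CCGGAA, which contains GGAA, was in 19.9% of windows and among these 4 only before MEIS1. The letters GATAA, of GATA factors, were in 16.4% of windows and among the 4 only before PLVAP, and ACAAT, of SOX factors, in 18.2% and before APLN and MEIS1. A match is a description of the letters and not evidence of binding. CDH5 itself and PECAM1 had no entry.

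Of the endothelial transcription factors, 18 of 22 passed the filter, and 6 of these (33.3%, against 4.94% of all genes tested) were higher and 0 lower, with a median difference of 0.49. In EQ-75% the counts were 4 and 0. TAL1, a basic helix-loop-helix factor of the blood and endothelial lineages, had medians of 189 CPM in CDH5-high and 8.56 CPM in CDH5-low cells, and 17 of 19 CDH5-high cells lay above the CDH5-low median. Its difference was 2.10, with SDs of 2.36 and 2.73. ERG (chr21:38380027-38661780), an ETS factor that binds endothelial promoters and enhancers, ranged from 17.1 to 899 CPM in CDH5-high cells, with a median of 209, and from 2.52 to 242 CPM in CDH5-low cells, with a median of 64.1. The ERG difference was 1.45, with SDs of 2.03 and 2.07, and 1.25 without EC 15.

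The other 4 higher factors were close to 1 and passed below it without EC 15. SOX7, a SOX F factor, differed by 1.12 and by 0.91 without that cell. HHEX, a homeobox factor, differed by 1.12 and 0.93, LMO2, a LIM-domain partner of TAL1, by 1.06 and 0.92, and KLF2, a factor known for its response to flow, by 1.05 and 0.99. Without EC 15 the list therefore held 2 higher genes of 18, TAL1 and ERG. FLI1, the ETS factor most like ERG, had medians of 420 and 541 CPM and a difference of 0.02. GATA2, SOX17 and SOX18 differed by -0.44, -0.45 and -0.39.

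**Figure D4:**
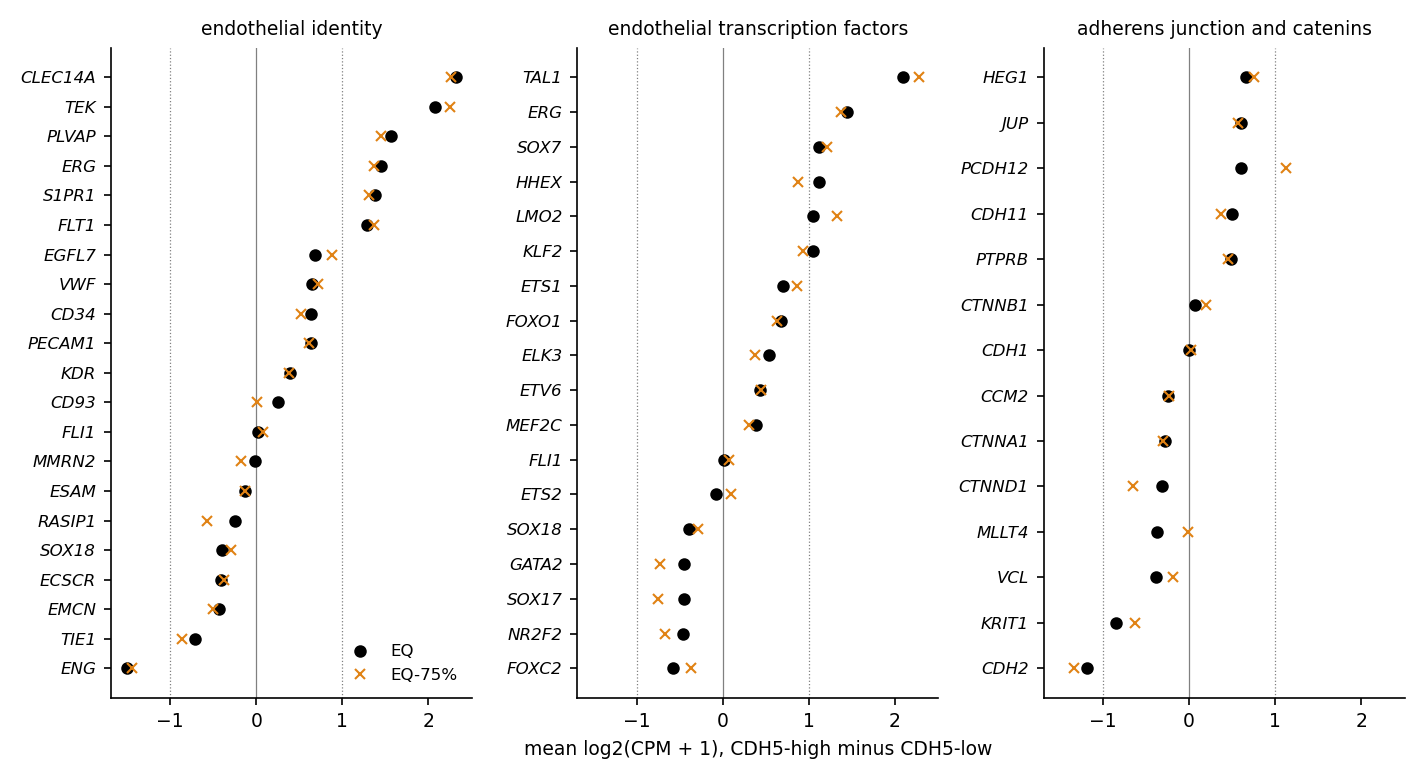
Difference of mean log2(CPM + 1), CDH5-high minus CDH5-low cells, for each filtered member of the endothelial identity, endothelial transcription factor and adherens junction lists, in EQ (points) and EQ-75% (crosses), with dotted lines at 1 and -1. CLEC14A and TAL1 lead their lists at 2.32 and 2.10, and the catenins lie between -0.31 and 0.61.

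The partners of VE-cadherin differed little between the groups. Of 16 genes of adherens junctions and catenins, 14 passed the filter, 0 were higher and 1 was lower, with a median difference of -0.12. Over all genes tested 4.94% were higher, 9.54% were lower and the median was -0.16, close to the values of this list. CTNNB1, beta-catenin, ranged from 475 to 2824 CPM in CDH5-high cells, with a median of 1235, and from 257 to 2486 CPM in CDH5-low cells, with a median of 1397. These ranges were nearly the same and the difference was 0.08. CTNNA1, alpha-catenin, differed by -0.28, CTNND1, p120-catenin, by -0.31, and JUP, plakoglobin, by 0.61. PTPRB, which encodes VE-PTP, had medians of 120 and 130 CPM and a difference of 0.48.

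CDH2, N-cadherin, was the lower gene of the list, with medians of 14.5 CPM in CDH5-high and 44.02 CPM in CDH5-low cells and a difference of -1.19, with SDs of 2.37 and 2.28. CDH1, E-cadherin, had medians of 16.4 and 17.95 CPM and a difference of 0.00, against a median of 522 CPM in TB cells. PCDH12, a protocadherin of endothelial cells, differed by 0.60 in EQ and 1.13 in EQ-75%. Among 12 genes of tight junctions and other contacts, 0 were higher and 1 was lower, against 4.94% and 9.54% of all genes tested. The lower gene, OCLN (occludin), had medians of 33.1 and 138 CPM and a difference of -1.35. TJP1, which encodes ZO-1, differed by 0.39, and the list median was 0.08, or -0.04 without EC 15.

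In the VEGF list, 2 of 7 filtered genes (28.6%, against 4.94% of all genes tested) were higher and 0 lower, with a median difference of 0.20. The median was -0.15 with groups set by CDH5 in EQ-75%, and 1 gene was higher in EQ-75%, in EQ-Vary and without EC 15. Beside FLT1 the higher gene was NRP1, a VEGF co-receptor, which differed by 1.09 and by 0.73 without EC 15. The co-receptor NRP2 and the lymphatic receptor FLT4 differed by -0.65 and -0.91. VEGFC and FIGF had 0 counts in every cell. Of 5 filtered genes of the angiopoietin list only TEK was higher and 0 were lower, with a list median of -0.42. The ligand ANGPT2 had medians of 33.2 and 18.9 CPM and a difference of -0.55, so that its medians and its mean log2 difference pointed opposite ways, and ANGPT1 had 0 counts in every cell.

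Among Notch and arterial genes, 1 of 14 was higher (7.14%, against 4.94% of all genes tested) and 0 were lower in EQ, with a median of 0.32. That gene was EFNB2, the arterial ephrin ligand, with medians of 375 and 214 CPM and a difference of 1.19. The Notch targets HEY1 and HEY2 were both just short of 1 at 0.99, CXCR4 differed by 0.95 and the receptor NOTCH4 by 0.83. In EQ-75% HEY1, HEY2 and NOTCH4 were at 1.47, 1.14 and 1.04, which brought the count to 4 of 14. The ligand DLL4 had medians of 70.5 and 31.5 CPM and a difference of 0.36. Of 5 venous genes, 0 were called in either direction and the median was -0.46, with NR2F2, the venous nuclear receptor, at -0.46 and EPHB4, the receptor for EFNB2, at 0.16.

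Of 8 filtered genes of apelin, sphingosine 1-phosphate and adrenomedullin signalling, 3 were higher (37.5%, against 4.94% of all genes tested) and 0 lower, with a median of 0.30. APLN, the apelin ligand, ranged from 1.67 to 306 CPM in CDH5-high cells, with a median of 120. In CDH5-low cells it ranged from 0 CPM, in EC 15, to 138 CPM, with a median of 31.9. The APLN difference was 1.56, and 1.31 without EC 15. CALCRL, the adrenomedullin receptor, had medians of 499 and 311 CPM and a difference of 1.46 (0.64 as a log2 ratio of mean CPM), and the third gene was S1PR1. Without EC 15 the list held 3 higher and 1 lower gene, with a median of 0.07. The apelin receptor APLNR had medians of 312 and 286 CPM and a difference of 0.26. Against 4.94% and 9.54% of all genes tested, 1 of 13 BMP and TGF-beta genes was higher (7.69%) and 1 was lower. Their median was -0.24, and -0.42 without EC 15. The ligand BMP4 differed by 1.07 (0.94 without EC 15). The lower gene was ENG, which passed the filter through the CDH5-low cells.

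Markers of other cell types that the culture could hold were counted in the same way. Of 12 filtered pluripotency genes, 0 were higher and 1 was lower (4.94% and 9.54% of all genes tested), the telomere protein gene TERF1 at -1.18. In this list 10 of 12 lay below 0 and the median was -0.47, against -0.16 over all genes tested. The summed level of that list ranged from 225 to 1326 CPM in CDH5-high and from 203 to 4181 CPM in CDH5-low cells, and SOX2 had 0 counts in every cell. With EC 15 included, NANOG differed by -0.63 and POU5F1 by -0.76. Without EC 15 the list median was -0.40 and 2 genes were lower. Whether the remaining pluripotency RNA has a part in the differences above was not tested.

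Of 13 filtered mesenchymal and mural genes, 2 were higher (15.4%, against 4.94% of all genes tested) and 0 lower, with a median of 0.19. Summed levels were 1012 to 5774 CPM in CDH5-high and 676 to 4453 CPM in CDH5-low cells. Without EC 15 the lowest CDH5-low sum was 1066 CPM. The higher genes were the collagen genes COL1A1 and COL1A2. COL1A2 had medians of 898 and 452 CPM and differed by 1.13 (0.86 without EC 15). COL1A1 had medians of only 1.58 and 0.77 CPM but reached 443 CPM in CDH5-high and 6.36 CPM in CDH5-low cells, and differed by 1.30. It passed the filter through the CDH5-high cells. POSTN had 0 counts in every cell.

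The remaining lists gave few calls, beside 4.94% of all genes tested that were higher and 9.54% that were lower. Of 7 filtered blood genes, MYB was higher at 1.01 and KIT lower at -1.70, with a median of -0.15, and GFI1, SPI1 and HBG1 had 0 counts in every cell. The summed level of the blood list ranged from 12.6 to 2165 CPM in CDH5-high and from 30.8 to 1296 CPM in CDH5-low cells. In the cardiac list ISL1 was lower at -2.09, 1 of 3 genes, with summed levels up to 262 CPM in CDH5-high and 322 CPM in CDH5-low cells, and a median of 0.16. ISL1 passed the filter through the CDH5-low cells. The 5 epithelial genes, 3 trophoblast genes, 3 mesoderm genes and 1 endoderm gene held 0 calls, with medians of 0.00, -0.18, 0.48 and -0.45. Without EC 15 these medians were -0.04, 0.23, 0.36 and -0.17. The summed levels of the same lists reached 1515, 563, 376 and 304 CPM in CDH5-high cells and 2977, 1014, 392 and 230 CPM in CDH5-low cells. The highest CDH5-low cell was EC 15 for the epithelial, trophoblast and endoderm lists. Without EC 15 the CDH5-low cells reached 1284, 1000 and 203 CPM on these lists, so the epithelial maximum was then in CDH5-high cells. The part of these markers in the differences above was not tested.

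Cycling cells were present in both groups. The summed G2 and mitosis list was above 1000 CPM in 4 of 19 CDH5-high and 5 of 19 CDH5-low cells, and reached 14346 and 11567 CPM. Of its 20 genes, 0 were higher and 2 were lower, CDK1 at -1.32 and TPX2 at -1.18, with a median of -0.23 and 16 of 20 below 0. Over all genes tested 9.54% were lower and the median was -0.16, both close to the values of this list. CDK1, the mitotic kinase, had medians of 0.50 and 1.004 CPM, so most cells of both groups were near 0. Of 12 S phase genes 1 was higher and 2 lower, with a median of -0.28 (-0.12 without EC 15). Those were MCM3 at 1.19, MCM7 at -1.85 and SLBP at -1.14, and SLBP was at -0.84 without EC 15. Of 9 immediate early and stress genes all lay below 0, with a median of -0.64, and 1, the heat shock gene HSPA1A, was lower at -1.09. Without EC 15, 3 immediate early and stress genes and 3 G2 and mitosis genes were lower, and 1 S phase gene. Of 9 genes of glycolysis and hypoxia 0 were called, with a median of 0.02.

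Most of the genes with the largest differences relative to the spread between cells were outside the lists. OPTN (chr10:13099449-13138308), the gene of the autophagy receptor optineurin, ranged from 0.47 to 659 CPM in CDH5-high cells, with a median of 52.4, and from 1.56 to 75.0 CPM in CDH5-low cells, with a median of 5.60. Of the CDH5-high cells, 16 of 19 lay above the CDH5-low median, although the lowest cell of all, EC 38, was CDH5-high. The difference was 2.70 in EQ, 2.81 in EQ-75% and 2.69 without EC 15, larger than the SDs of 2.27 and 1.002. Summed over cells, OPTN took 3640 counts in CDH5-high (95% exact Poisson interval 3523 to 3760) and 337 counts in CDH5-low cells (302 to 375). These intervals cover counting error only and not the spread between cells, and OPTN was named for its difference in the same values.

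NAV1, a neuron navigator gene, had medians of 256 and 32.7 CPM and a difference of 2.31, with SDs of 1.88 and 2.17, and 17 of 19 CDH5-high cells lay above the CDH5-low median. MEIS1 ranged from 78.0 to 1243 CPM in CDH5-high cells, with a median of 364, and from 4.48 to 1120 CPM in CDH5-low cells, with a median of 126, and differed by 2.20, but by only 0.68 as a log2 ratio of mean CPM. It was also high in TB cells, at a median of 675 CPM. PLOD3, a collagen-modifying lysyl hydroxylase, differed by 2.43 with medians of 7.05 and 0.63 CPM. The transcript listed as RP11-665C16.9, which GENCODE v44 annotates as a processed pseudogene, differed by 2.23, and its reads may be shared with a copy, so its level is uncertain.

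The last 3 of the 10 leading higher genes were detected in few CDH5-low cells. They were chosen for their difference, and summed over cells CFAP161 took 1226 counts in CDH5-high and 95 in CDH5-low cells, SMAP2 842 and 23, and TMEM55B 436 and 2, so they passed the filter through the CDH5-high cells. CFAP161 held at least 1 count in 15 of 19 CDH5-high cells and 4 of 19 CDH5-low cells. SMAP2, which encodes an Arf GTPase-activating protein, was detected in 12 and 3 cells, and TMEM55B, now named PIP4P1, a phosphoinositide phosphatase, in 11 and 2 cells. Their differences were 2.53, 1.89 and 1.80. TEK and PLVAP were the other members of this group of 10.

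The 10 leading lower genes belonged to none of the lists. COA4, a mitochondrial assembly factor, had medians of 3.33 CPM in CDH5-high and 71.3 CPM in CDH5-low cells and a difference of -3.11, with SDs of 2.30 and 2.38. IBTK, an inhibitor of Bruton tyrosine kinase, had medians of 1.43 and 119 CPM and a difference of -3.63, with SDs of 3.27 and 2.60, and both groups reached high values, 785 and 698 CPM. TRIM71, an RNA-binding protein of early embryonic cells, had medians of 38 and 198 CPM and a difference of -2.75, and 2 of 19 CDH5-high cells lay above the CDH5-low median. DNAJA2, a co-chaperone of HSP70, had medians of 74.8 and 246 CPM and differed by -2.31.

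SREK1IP1, ALDH1B1 and ZKSCAN1 differed by -1.86, -1.60 and -1.44, and ZNF14, a zinc finger gene, by -1.98 with 0 of 19 CDH5-high cells above the CDH5-low median. These 4 genes were also past -1 in EQ-75%, at -1.92, -1.70, -1.54 and -1.87. FRRS1 and KIAA0087, the last a long noncoding RNA in GENCODE v44, did not: they differed by -1.20 and -1.04 in EQ but by -0.10 and -0.45 in EQ-75%. All of these 10 genes were listed among the most different because of a rule that used the same values, so their order is a description.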

How the data were processed

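The values analysed were the expected counts of 17492 genes that the authors deposited without normalization. Per the methods, the authors cut all reads to 51 bp, aligned them against protein-coding Ensembl genes on GRCh38 (Bowtie 1.2.3, at most 2 mismatches) and let RSEM 1.2.31 estimate the counts. The authors had removed cells whose capture images showed doublets or dead cells. Of the sample columns, 0 were left unused.

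Counts were rounded, and CPM was taken over all genes of a library. Limits on cells were those of the methods. A gene was compared where its mean over the 38 cells was at least 5 CPM, with 1 CPM added before log2. Named genes were CDH5, the members of 22 gene lists, and for each direction the 10 genes with the largest difference relative to the pooled SD, called in EQ and of the same sign in EQ-75%. The groups were set by a measured value, and the members and lists were chosen with earlier results of these data known, so no test was run. Gene positions are from GENCODE v44. The computation was tested on simulated data: of 200 of 9619 genes set to differ by 2 on the log2 scale, 100% were called, at medians of 1.95 and -1.92, and 0.011% of the others. The simulated counts had the same setting of spread for every gene, which was not taken from these cells. The 0.011% is therefore not the rate of false calls among the genes called here. A gene with few counts carries a large counting error, and reads without molecular identifiers are not independent molecules, so intervals cover counting error only. Alternatives were other scalings, filters, pseudocounts, depth, divisions of the cells and libraries, and leaving out EC 15, which was chosen after seeing the data. Python 3.11.15, numpy 2.4.6, pandas 2.3.3 and matplotlib 3.10.9 were used.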

Additional observations from a re-analysis of the deposited data

How the results depend on the processing

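No paired analysis was possible because the CDH5 groups hold different cells and the result comes from no test. Of 44 genes called and followed over 12 alternatives, 19 were called in the same direction in each alternative that gave a value and 25 were not, and 16 were not called by the log2 ratio of mean CPM. The median of 12 of 22 gene lists crossed 0 in at least 1 alternative. The counts of genes moved most with the scale: a pseudocount of 10 CPM gave 100 higher and 179 lower genes, and the log2 ratio of mean CPM, which gives single cells more weight, gave 1215 and 1448. The upper and lower 12 cells alone gave 1040 higher and 1179 lower genes. CDK1 was reversed, at 0.11 with all EC cells and no limits. COL1A1 and TMEM55B moved to 4.1995 and 3.64 with the ratio of means, and FRRS1 moved to -0.10 in EQ-75%. Thinning to 250000 counts gave 573 and 1106 genes, all EC cells without limits 619 and 690, and EQ-Vary 495 and 972. Groups set by CDH5 in EQ-75%, with EC 2 among the upper cells, gave 669 and 739, with 47.5% of called genes higher, a median of 0.47 for G2 and mitosis and of -0.10 for pluripotency. The share higher was 46.9% with the outer 12 cells, 47.3% with all EC cells and 45.6% with the ratio of means. Lower genes outnumbered higher ones under all 12 alternatives, but the share that was higher depended on these choices, and the cause was not tested.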

Other observations

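KIT, the receptor for stem cell factor, was above 50 CPM in 5 of 19 CDH5-high and 11 of 19 CDH5-low cells. Its highest cell was CDH5-high, at 1731 CPM, against 1142 CPM in CDH5-low cells, and the means of the groups were alike at 164 and 166 CPM, so that the difference of -1.70 on the log2 scale was -0.02 as a log2 ratio of means. GDF3, a ligand of the TGF-beta family, was above 50 CPM in 2 CDH5-high and 4 CDH5-low cells. ISL1, a LIM homeobox factor of the second heart field, held at least 1 count in 7 CDH5-high and 14 CDH5-low cells and reached 5.71 and 173 CPM.

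The 7 EC cells of EQ outside the limits were not ranked. EC 1, EC 14 and EC 41 held 11404, 13307 and 13913 counts in EQ, of which 4, 3 and 1 were from CDH5. In EQ-75%, EC 1 and EC 14 met the limits, with 1353233 and 1615784 counts and CDH5 at 682 and 237 CPM. EC 41 did not meet them there, with 231090 counts. EC 40, EC 42, EC 44 and EC 45 held 176237 to 336843 counts, with 36.6 to 57.6% in the 50 most abundant genes and 21.6 to 42.5% in the MTRNR2L family, copies of a mitochondrial sequence whose reads can be shared. CDH5 was at 672, 83.1, 230 and 34.05 CPM in these 4 cells.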
